A study of Mus musculus with 12 samples.

Results

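Glul, Oat, Slc1a2, Rhbg, Lgr5, Axin2, Tbx3, Rnf43, Znrf3 and Sp5 are genes of pericentral hepatocytes or targets of Wnt signalling. They were chosen by symbol and are 10 of the 55357 genes in a table of read counts from mouse liver, and each of them was among the 17358 genes with enough counts to be tested. The 12 libraries were bulk RNA-seq of male C57BL/6J mice whose Ppara alleles were floxed in every group (PPARafl/fl). KO mice also carried 1 copy of an Albumin-driven Cre transgene (AlbuminCreTg/+), which deletes Ppara in hepatocytes. The paper describes the knockout as specific to hepatocytes, and the state of the gene in other liver cells was not tested here. WT mice were PPARafl/fl AlbuminCre+/+, without the transgene. From an age of 7 weeks the mice received chow or CDAHFD, a choline-deficient high-fat diet with defined amino acids, and livers were taken 6 weeks later, at 13 weeks. The labels give 4 libraries of WT mice on chow (WT chow), 3 of WT mice on CDAHFD (WT CDAHFD), 2 of KO mice on chow (KO chow) and 3 of KO mice on CDAHFD (KO CDAHFD). The methods state equal group sizes, and KO chow replicate 2 is numbered 3 in its description. A histology table of the study also lists the KO mice per diet in reversed numbers. The groups of the labels were used, and these mismatches were not resolved, so the diet of each KO library rests on its label alone.

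Total counts per library ran from 29906785 to 43551003. CPM values are counts scaled to a common library size with TMM factors. Ppara, the deleted gene, had 120.1, 96.2, 238 and 226 CPM in WT chow and 59.5, 75.5 and 73.5 CPM in WT CDAHFD. It had 14.4 and 38.7 CPM in KO chow and 36.3, 20.7 and 51.9 CPM in KO CDAHFD, so each KO library was below each WT library. Reads outside the floxed part and reads from other cells were not separated. The 5 matched hepatocyte markers (Alb, Apoa1, Apob, Ttr and Fgb) summed to between 42939 and 102660 CPM per library, and none was at 0. The libraries also differed in a score of clock genes (the mean log2 level of Dbp, Tef, Per2, Per3 and Ciart minus that of Arntl, Npas2 and Clock), which was between -4.23 and -2.49 in 8 libraries. It was 2.38 and 2.37 in WT chow replicates 3 and 4, 0.36 in KO chow replicate 2 and 3.26 in KO CDAHFD replicate 3.

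The liver lobule is zoned from the portal tract to the central vein. Endothelial cells of the central vein secrete Wnt ligands and R-spondin 3, and in the hepatocytes next to them beta-catenin is stabilized, enters the nucleus and switches on target genes with TCF/LEF factors. These pericentral hepatocytes take up ammonia that escaped urea synthesis upstream and fix it into glutamine. In bulk RNA, fewer cells of a type and less RNA per cell cannot be told apart.

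The sequences shown are the 250 bases before the transcription start of Glul, the classical pericentral gene, and of Sp5 and Axin2, direct Wnt target genes, taken from RefSeq on GRCm38.p6 and written 5′ to 3′ on the gene's strand. Each of the 3 genes lies on the plus strand, and the windows are chr1:153899679-153899928 for Glul, chr2:70474673-70474922 for Sp5 and chr11:108920099-108920348 for Axin2. Capitals mark CTTTGA, a form of the core of the TCF/LEF motif, which was searched on both strands. Other forms of the core, such as CTTTGT, were neither searched nor marked.
Sp5: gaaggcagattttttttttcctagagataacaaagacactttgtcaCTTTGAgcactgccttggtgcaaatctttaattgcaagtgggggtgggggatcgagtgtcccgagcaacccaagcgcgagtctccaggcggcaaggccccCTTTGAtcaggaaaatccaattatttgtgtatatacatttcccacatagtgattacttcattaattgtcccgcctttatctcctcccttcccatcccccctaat
Axin2: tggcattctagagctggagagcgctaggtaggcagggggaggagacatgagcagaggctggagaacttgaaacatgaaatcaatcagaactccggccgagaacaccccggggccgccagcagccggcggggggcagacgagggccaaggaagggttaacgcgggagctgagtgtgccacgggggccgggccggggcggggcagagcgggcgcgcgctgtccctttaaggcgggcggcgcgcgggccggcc
Glul: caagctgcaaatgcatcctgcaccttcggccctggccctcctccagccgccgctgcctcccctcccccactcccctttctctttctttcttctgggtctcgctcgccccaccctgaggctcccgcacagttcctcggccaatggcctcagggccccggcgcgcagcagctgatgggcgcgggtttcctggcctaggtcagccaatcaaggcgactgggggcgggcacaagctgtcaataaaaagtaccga

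The Sp5 window held CTTTGA at 204 and at 104 bases before the start, both on the gene's strand. The Slc1a2 window, chr2:102706188-102706437, lies inside the annotated gene, before an internal start, and held it at 206 bases on the opposite strand and at 77 bases on the gene's strand. The letters were not in the windows of Glul, Oat, Axin2 and Rnf43, which has 2 windows. Of the 32851 windows of all genes, 13.8% held CTTTGA on either strand. Rhbg, Lgr5, Tbx3 and Znrf3 were not matched.

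Positions are given on GRCm38 with the GENCODE M21 annotation, and the counts cover the exons of each gene. Glul (ENSMUSG00000026473) lies at chr1:153899944-153909723 on the plus strand, and Oat (ENSMUSG00000030934) lies at chr7:132557478-132576398 on the minus strand. Slc1a2 (ENSMUSG00000005089) lies at chr2:102658659-102790784 on the plus strand, and Rhbg (ENSMUSG00000104445) lies at chr3:88242874-88254709 on the minus strand. Lgr5 (ENSMUSG00000020140) lies at chr10:115450311-115587780 on the minus strand, and Axin2 (ENSMUSG00000000142) lies at chr11:108920349-108950783 on the plus strand. Tbx3 (ENSMUSG00000018604) lies at chr5:119670669-119684724 on the plus strand, and Rnf43 (ENSMUSG00000034177) lies at chr11:87662722-87735539 on the plus strand. Znrf3 (ENSMUSG00000041961) lies at chr11:5276324-5444847 on the minus strand, and Sp5 (ENSMUSG00000075304) lies at chr2:70474923-70477729 on the plus strand.

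Relative to WT chow, 7 of the 10 genes were lower in KO chow and none was higher, at an adjusted p under 0.05 from edgeR's quasi-likelihood test. Of all 17358 genes tested, 39% were called in this comparison, 22% as higher and 17% as lower. The median log2 fold change was -1.32 over the 10 genes and 0.00217 over all genes. The lower genes were Glul, Oat, Slc1a2, Rhbg, Tbx3, Rnf43 and Sp5. In WT CDAHFD against WT chow, Rhbg and Lgr5 were higher and Oat and Tbx3 were lower, where 51.1% of all genes were called, 26.1% as higher and 25% as lower. In KO CDAHFD against WT chow, Rhbg, Lgr5, Axin2 and Sp5 were higher and none of the 10 was lower, where 52.4% of all genes were called and 26.9% were higher. These shares of 4 of 10 are near the background. All 3 comparisons use the same WT chow libraries. Without WT chow replicate 4, or without KO CDAHFD replicate 1, the count in KO CDAHFD was 2 instead of 4. With library size as the only scaling, the median of all genes rose by 0.404 for KO chow, 0.51 for WT CDAHFD and 0.571 for KO CDAHFD, and 86%, 88.6% and 89.9% of all calls were higher. These percentages are shares of the calls and not of all genes tested. Under that scaling 7 of the 10 genes were called in WT CDAHFD, of which 6 were higher, and 8 were called in KO CDAHFD, all of them higher. Their direction is that of most calls under this scaling, and the counts are not read as a result about the 10 genes.

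**Figure D1:**
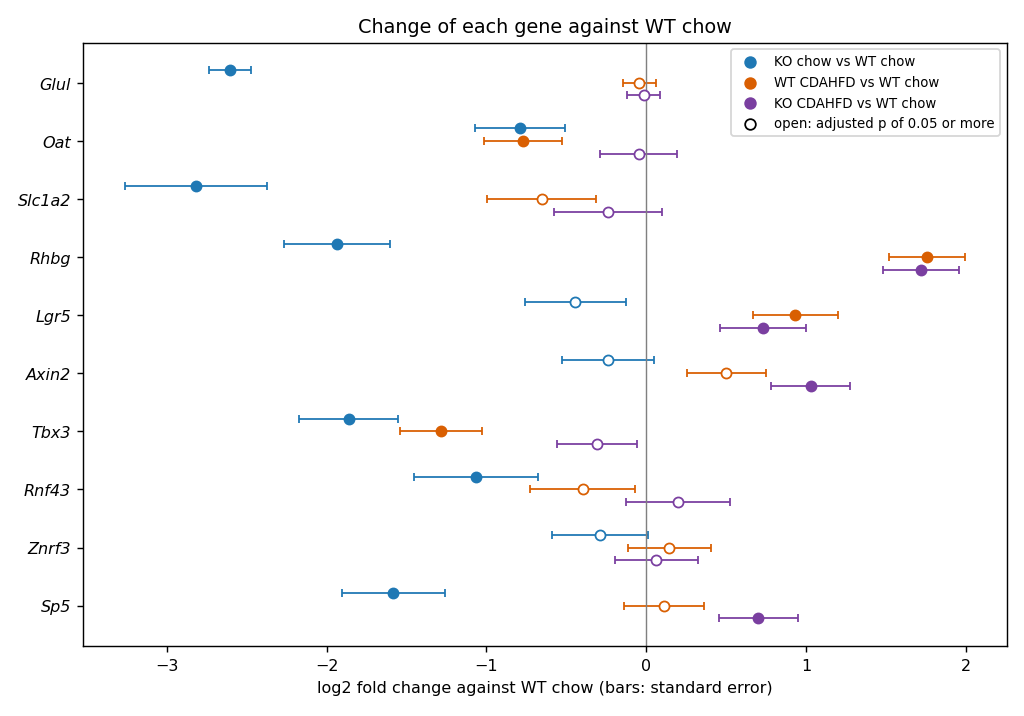
Log2 fold change against WT chow (horizontal axis, bars are standard errors) for each of the 10 genes in the KO chow, WT CDAHFD and KO CDAHFD groups, with filled points at an adjusted p under 0.05. The KO chow point is the leftmost of each gene, from -2.82 for Slc1a2 to -0.24 for Axin2, while those of Rhbg and Lgr5 on CDAHFD lie to the right of 0.

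Glul encodes glutamine synthetase, which fixes ammonia into glutamine in the hepatocytes around the central vein. It had 1150.4, 1061, 1206 and 1114 CPM in WT chow and 1086, 1066 and 1144 CPM in WT CDAHFD. It fell to 174 and 199 CPM in KO chow and was 1120.5, 1033 and 1205 CPM in KO CDAHFD. The KO chow libraries were thus far below all others, while the other 3 groups overlapped. WT chow averaged 1133 ± 60.9 CPM (SD, n = 4), WT CDAHFD averaged 1099 ± 40.4 CPM (SD, n = 3), KO chow averaged 186 ± 18.1 CPM (SD, n = 2) and KO CDAHFD averaged 1119 ± 86.1 CPM (SD, n = 3). The log2 fold change against WT chow was -2.60 in KO chow (SE 0.13, adjusted p = 7.34e-08, edgeR). It was -0.04 in WT CDAHFD (SE 0.10, adjusted p = 0.743, edgeR) and -0.02 in KO CDAHFD (SE 0.10, adjusted p = 0.906, edgeR), with signs that changed under other settings. When libraries were scaled by their size alone, which shifted the median of all genes by 0.51 and 0.57, both were called, at 0.51 and 0.60, which is 0.0042 and 0.0267 above those shifts.

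Slc1a2 encodes the glutamate transporter GLT-1, which brings glutamate into pericentral hepatocytes. It had 141, 112, 201 and 213 CPM in WT chow, 111, 91.7 and 115 CPM in WT CDAHFD, 20.6 and 26.8 CPM in KO chow, and 103, 75.6 and 245 CPM in KO CDAHFD. As for Glul, the KO chow libraries were below all others. The 3 highest values came from WT chow replicates 3 and 4 and KO CDAHFD replicate 3, the libraries with the 3 highest clock scores. Whether the clock phase caused this spread was not tested. The log2 fold change in KO chow was -2.82 (SE 0.44, adjusted p = 2.98e-04, edgeR), and -2.62 in the 8 libraries with a clock score under 0. In WT CDAHFD it was -0.65 (SE 0.34, adjusted p = 0.127, edgeR) and in KO CDAHFD -0.24 (SE 0.34, adjusted p = 0.581, edgeR). With the clock score as a covariate it was -2.68 in KO chow (adjusted p = 2.61e-06, edgeR). That fit gave -0.32 in WT CDAHFD (adjusted p = 0.164, edgeR) and -0.38 in KO CDAHFD (adjusted p = 0.0884, edgeR). Without KO CDAHFD replicate 3, Slc1a2 was lower in KO CDAHFD, at -0.89 (adjusted p = 0.0122, edgeR), and in WT CDAHFD, at -0.65 (adjusted p = 0.0242, edgeR). In WT CDAHFD it was also called as lower without a filter on low counts (-0.60, adjusted p = 0.048, edgeR). The same held with only the compared groups fitted (-0.60, adjusted p = 0.0401, edgeR).

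Rhbg encodes an ammonium transporter of the Rh glycoprotein family on pericentral hepatocytes. It was a low gene, with 13 to 372 counts per library. It had 1.90, 1.61, 2.60 and 1.42 CPM in WT chow and 6.52, 7.22 and 5.44 CPM in WT CDAHFD. It had 0.680 and 0.315 CPM in KO chow and 6.67, 5.77 and 6.23 CPM in KO CDAHFD. The KO chow libraries were below and the CDAHFD libraries of both genotypes were above each WT chow library. The log2 fold changes were -1.93 in KO chow (SE 0.33, adjusted p = 5.81e-04, edgeR), 1.76 in WT CDAHFD (SE 0.24, adjusted p = 5.27e-05, edgeR) and 1.72 in KO CDAHFD (SE 0.24, adjusted p = 6.03e-05, edgeR). Rhbg was thus called in opposite directions in KO chow and on CDAHFD, the latter in both genotypes. Its exons share 1190 bases with those of Gm38392 on the same strand, which held 3 counts in all libraries.

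Oat encodes ornithine aminotransferase, which makes glutamate from ornithine. It had 516, 841, 1209 and 900.0 CPM in WT chow, 497, 436 and 592 CPM in WT CDAHFD, 426 and 576 CPM in KO chow, and 859, 665 and 995 CPM in KO CDAHFD. WT chow overlapped with each of the other groups, and each KO CDAHFD library was above the libraries of KO chow and WT CDAHFD. The log2 fold changes were -0.79 in KO chow (SE 0.28, adjusted p = 0.0413, edgeR) and -0.77 in WT CDAHFD (SE 0.24, adjusted p = 0.0189, edgeR). In KO CDAHFD the log2 fold change was -0.05 (SE 0.24, adjusted p = 0.89, edgeR), and its sign changed under other settings. Both calls were fragile. The KO chow call was lost without any 1 of WT chow replicates 2, 3 and 4, WT CDAHFD replicate 1, both KO chow replicates and KO CDAHFD replicate 1, with values from -1.02 to -0.57 and adjusted p from 0.0555 to 0.295 (edgeR). It was also lost when only the compared groups were fitted (-0.77, adjusted p = 0.0916, edgeR). The WT CDAHFD call was lost without WT chow replicate 3 (-0.55) or WT CDAHFD replicate 1 (-0.75) or 2 (-0.67), at adjusted p from 0.0598 to 0.0809 (edgeR). With the clock score as a covariate both were past it (-0.71 and -0.56, adjusted p = 0.0159 and 0.0238, edgeR). Neither was past the threshold in the 8 libraries with a clock score under 0 (-0.67 and -0.42) or when libraries were scaled by size alone (-0.38 and -0.20).

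**Figure D2:**
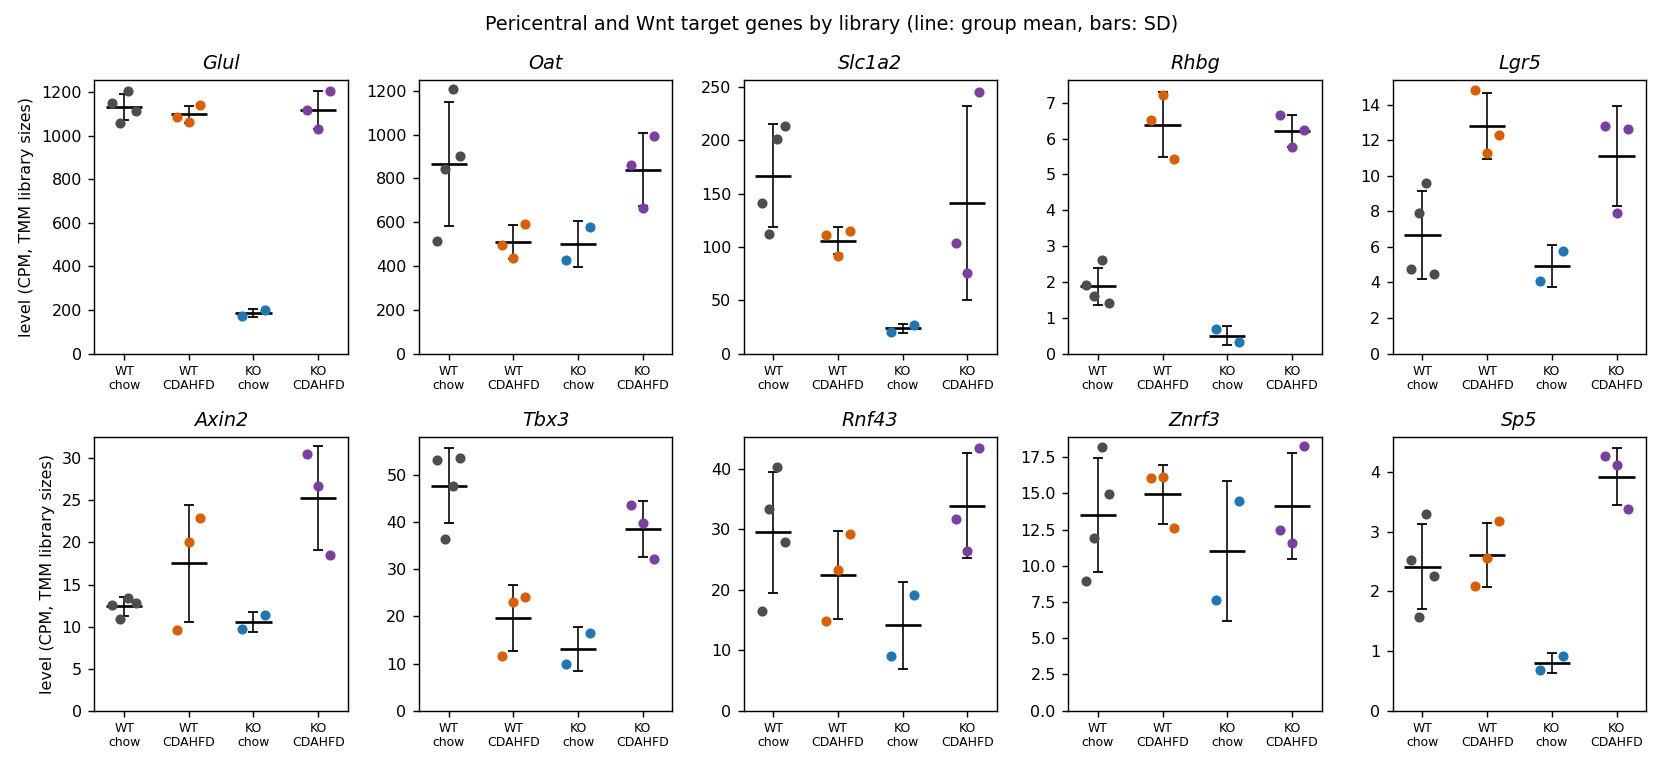
Level of each of the 10 genes in CPM with TMM library sizes (vertical axes start at 0), a point per library, with the group mean as a line and the SD as bars, for WT chow (n = 4), WT CDAHFD (n = 3), KO chow (n = 2) and KO CDAHFD (n = 3). The 2 KO chow points of Glul (174 and 199 CPM) and Slc1a2 (20.6 and 26.8 CPM) lie below every other library, and the KO CDAHFD points of Rhbg and Axin2 lie above every WT chow library.

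Lgr5, a receptor for R-spondins that amplifies Wnt signals, had 4.74, 7.90, 9.60 and 4.45 CPM in WT chow and 14.9, 11.3 and 12.3 CPM in WT CDAHFD. It had 4.08 and 5.77 CPM in KO chow and 12.8, 7.89 and 12.6 CPM in KO CDAHFD. Each WT CDAHFD library was above each WT chow library, while KO CDAHFD replicate 2 lay among the WT chow libraries. On the log2 scale Lgr5 rose by 0.93 in WT CDAHFD (SE 0.27, adjusted p = 0.011, edgeR) and 0.73 in KO CDAHFD (SE 0.27, adjusted p = 0.0368, edgeR). The second call was lost without WT chow replicate 1 (0.63) or 4 (0.61) or KO CDAHFD replicate 1 (0.62) or 3 (0.63), at adjusted p from 0.0761 to 0.124 (edgeR), and in the 8 libraries with a clock score under 0 (0.71, adjusted p = 0.0772, edgeR). In KO chow its log2 fold change was -0.44 (SE 0.32, adjusted p = 0.293, edgeR).

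Axin2, a scaffold of the beta-catenin destruction complex and a feedback target of the pathway, was steady in WT chow, with 12.54, 10.9, 13.4 and 12.8 CPM. It had 9.65 and 11.3 CPM in KO chow, 9.63, 20.02 and 22.9 CPM in WT CDAHFD, and 30.6, 26.8 and 18.5 CPM in KO CDAHFD. All 3 KO CDAHFD libraries were above each WT chow library, and WT CDAHFD replicate 1 was below them. The log2 fold change was 1.03 in KO CDAHFD (SE 0.25, adjusted p = 0.00363, edgeR). It was 0.50 in WT CDAHFD (SE 0.25, adjusted p = 0.11, edgeR), and 0.80 without WT CDAHFD replicate 1 (adjusted p = 0.00427, edgeR). Without a filter on low counts Axin2 was called in WT CDAHFD at 0.56 (adjusted p = 0.0264, edgeR). In KO chow the log2 fold change was -0.24 (SE 0.29, adjusted p = 0.546, edgeR), and 0.16 with library size as the only scaling, which is -0.24 relative to the median shift of 0.40.

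Rnf43 and Znrf3 encode membrane ubiquitin ligases that remove Frizzled receptors and so limit Wnt signals. Rnf43 had 16.4, 33.3, 40.2 and 27.8 CPM in WT chow, 14.8, 23.3 and 29.1 CPM in WT CDAHFD, 9.001 and 19.2 CPM in KO chow, and 31.7, 26.4 and 43.4 CPM in KO CDAHFD. KO chow replicate 2 lay above WT chow replicate 1, and the values spread widely within each group. In KO chow Rnf43 was lower, at -1.06 on the log2 scale (SE 0.39, adjusted p = 0.0453, edgeR). That call was lost without any 1 of WT chow replicates 2, 3 and 4, WT CDAHFD replicate 2, KO chow replicate 1, and KO CDAHFD replicates 1 and 2, at adjusted p from 0.0516 to 0.375 (edgeR). Its value over these fits ran from -1.08 to -0.60, the latter without KO chow replicate 1, and it was -0.66 (adjusted p = 0.187, edgeR) with library size as the only scaling. An intronic transcript on the same strand, 1110028F11Rik, held 7.66% as many counts as Rnf43. Znrf3 had 8.97, 11.9, 18.2 and 15.0 CPM in WT chow, 16.1, 16.1 and 12.6 CPM in WT CDAHFD, 7.61 and 14.5 CPM in KO chow, and 12.485, 11.6 and 18.3 CPM in KO CDAHFD. Its libraries overlapped between all groups. Its log2 fold changes were -0.29 in KO chow (SE 0.30, adjusted p = 0.481, edgeR), 0.14 in WT CDAHFD (SE 0.26, adjusted p = 0.669, edgeR) and 0.06 in KO CDAHFD (SE 0.26, adjusted p = 0.857, edgeR). With the clock score as a covariate Znrf3 was called as higher in WT CDAHFD (0.41, adjusted p = 0.0397, edgeR).

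Tbx3 and Sp5 encode transcription factors that are induced by Wnt signals. Tbx3 had 53.2, 36.5, 47.8 and 53.7 CPM in WT chow and 11.5, 23.1 and 24.2 CPM in WT CDAHFD. It had 9.84 and 16.4 CPM in KO chow and 43.8, 39.8 and 32.1 CPM in KO CDAHFD. The KO chow and WT CDAHFD libraries were all below the WT chow and KO CDAHFD libraries, and the latter groups overlapped with each other. The log2 fold change was -1.86 in KO chow (SE 0.31, adjusted p = 4.38e-04, edgeR) and -1.28 in WT CDAHFD (SE 0.26, adjusted p = 0.00111, edgeR). In KO CDAHFD it was -0.31 (SE 0.25, adjusted p = 0.32, edgeR). The antisense gene Tbx3os1 shares 115 exon bases with Tbx3 and held 14.4% as many counts, and in these libraries without strand the reads of the shared bases cannot be told apart.

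Sp5, which represses part of the Wnt response, was a low gene with 25 to 176 counts per library. It had 2.52, 1.57, 3.30 and 2.25 CPM in WT chow, 2.09, 2.56 and 3.17 CPM in WT CDAHFD, 0.680 and 0.922 CPM in KO chow, and 4.27, 4.12 and 3.38 CPM in KO CDAHFD. The KO chow libraries were below and the KO CDAHFD libraries were above all WT libraries. The log2 fold changes were -1.58 in KO chow (SE 0.32, adjusted p = 0.00186, edgeR), 0.11 in WT CDAHFD (SE 0.25, adjusted p = 0.731, edgeR) and 0.70 in KO CDAHFD (SE 0.25, adjusted p = 0.0301, edgeR). The KO CDAHFD call was lost without WT chow replicate 2 (0.57) or 4 (0.70) or KO CDAHFD replicate 1 (0.64) or 2 (0.67), at adjusted p from 0.0516 to 0.0921 (edgeR).

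Per kilobase of exon, levels can be compared between genes. In WT chow, Oat (367 CPM per kb) and Glul (341 CPM per kb) stood far above Slc1a2 (12.7 CPM per kb). Then came Tbx3 with 7.21, Rnf43 with 4.49, Axin2 with 2.25, Znrf3 with 1.71, Sp5 with 1.15, Rhbg with 0.972 and Lgr5 with 0.650 CPM per kb. The order of Oat (SD 120.4) and Glul (SD 18.3), and of Rhbg (SD 0.268) and Sp5 (SD 0.340), changed between the WT chow libraries. Axin2 (SD 0.197) and Znrf3 (SD 0.502) had overlapping spreads, but Axin2 was above Znrf3 within each WT chow library. The pairs were 2.28 and 1.14, 1.97 and 1.51, 2.43 and 2.30, and 2.32 and 1.89 CPM per kb. These differences between genes were not tested. In KO chow, Glul was at 56.1 ± 5.43 and Oat at 212 ± 44.9 CPM per kb (SD, n = 2), so that Glul stood below Oat. In KO CDAHFD both were again close, at 337 ± 25.9 and 356 ± 70.2 CPM per kb (SD, n = 3).

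The comparison of KO CDAHFD with WT CDAHFD asks what the deletion added on the diet. None of the 10 genes was called, where edgeR called 0.357% of all genes (62), 0.0864% as higher and 0.271% as lower. At an unadjusted p under 0.05 there were 3, beside 1523 of all 17358 genes tested (edgeR). These were Oat with 0.72 (SE 0.26), Tbx3 with 0.98 (SE 0.27) and Sp5 with 0.59 (SE 0.26), all higher in KO CDAHFD. Their adjusted p ran from 0.219 to 0.541 (edgeR). For Oat and Tbx3, and for Sp5, each KO CDAHFD library was above each WT CDAHFD library, but the share of all genes separated in this way was not determined. DESeq2 called 1 gene, Tbx3 (0.98, adjusted p = 0.0354, DESeq2), and so did edgeR without a filter on low counts (adjusted p = 0.00529). Glul differed by 0.03 (SE 0.11) and Rhbg by -0.04 (SE 0.24) on the log2 scale between the genotypes on CDAHFD.

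The effect of the diet within the KO mice was examined next. In KO CDAHFD against KO chow, 6 of the 10 genes were higher (Glul, Slc1a2, Rhbg, Axin2, Tbx3 and Sp5) and none was lower, where 6.19% of all genes were called and 3.76% were higher. The median log2 fold change was 1.41 over the 10 genes and -0.00622 over all genes. Rhbg rose by 3.65 (SE 0.35, adjusted p = 1.55e-04, edgeR), Glul by 2.59 (SE 0.14, adjusted p = 1.99e-06, edgeR) and Slc1a2 by 2.58 (SE 0.45, adjusted p = 0.00717, edgeR). Sp5 rose by 2.28 (SE 0.33, adjusted p = 0.00278, edgeR), Tbx3 by 1.55 (SE 0.31, adjusted p = 0.0148, edgeR) and Axin2 by 1.27 (SE 0.31, adjusted p = 0.0325, edgeR). Rnf43 (1.26, SE 0.41, adjusted p = 0.0872, edgeR), Lgr5 (1.17, SE 0.34, adjusted p = 0.0589, edgeR) and Oat (0.75, SE 0.29, adjusted p = 0.153, edgeR) were not past the threshold. For all 3, each KO CDAHFD library was above each KO chow library, but the share of all genes separated in this way was not determined. Without KO chow replicate 1, which leaves 1 KO chow library, 3 genes were called, and Slc1a2, Axin2 and Tbx3 were lost at 2.43, 1.17 and 1.25. The Axin2 call was also lost without KO chow replicate 2 (1.38) or KO CDAHFD replicate 1 (1.11) or 2 (1.23). Lgr5 was called by DESeq2 (1.21, adjusted p = 0.00669, DESeq2) and without WT chow replicate 1, 3 or 4 or KO CDAHFD replicate 2, and Rnf43 by DESeq2 (1.299, adjusted p = 0.0146, DESeq2) and without WT chow replicate 1. With the clock score as a covariate, Lgr5 (1.14, adjusted p = 0.0449, edgeR) and Rnf43 (1.20, adjusted p = 0.0474, edgeR) were called too.

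KO chow and WT CDAHFD, which share no libraries, were compared with each other as well. In KO chow, 5 of the 10 genes were lower than in WT CDAHFD (Glul, Slc1a2, Rhbg, Lgr5 and Sp5) and none was higher, where 6.12% of all genes were called, 2.71% as higher and 3.42% as lower. The log2 fold change was -3.69 for Rhbg (SE 0.35, adjusted p = 1.30e-04, edgeR), -2.56 for Glul (SE 0.14, adjusted p = 2.22e-06, edgeR) and -2.16 for Slc1a2 (SE 0.44, adjusted p = 0.0145, edgeR). It was -1.69 for Sp5 (SE 0.33, adjusted p = 0.0113, edgeR) and -1.38 for Lgr5 (SE 0.34, adjusted p = 0.0328, edgeR). Tbx3, which was lower than WT chow in both groups, differed by -0.58 (SE 0.30, adjusted p = 0.27, edgeR) between them. Without KO chow replicate 1 the count was 2, with Slc1a2 (-1.99), Lgr5 (-1.16) and Sp5 (-1.50) lost, and without KO chow replicate 2 it was 3, with Slc1a2 (-2.36) and Lgr5 (-1.65) lost. The Lgr5 call was also lost without WT CDAHFD replicate 1 (-1.26), 2 (-1.46) or 3 (-1.41), and Axin2 was gained without WT CDAHFD replicate 1 (-1.03, adjusted p = 0.032, edgeR). Znrf3 was gained with the clock score as a covariate (-0.63, adjusted p = 0.039, edgeR).

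The interaction of genotype and diet tests whether the diet effect differed between KO and WT mice. It was called as higher in KO mice for 7 of the 10 genes and as lower for none, where 23.1% of all genes were called and 8.63% were called as higher. The log2 difference of the diet effects was 3.23 for Slc1a2 (SE 0.56, adjusted p = 0.00113, edgeR), 2.84 for Tbx3 (SE 0.41, adjusted p = 3.08e-04, edgeR) and 2.63 for Glul (SE 0.17, adjusted p = 1.07e-06, edgeR). It was 2.17 for Sp5 (SE 0.41, adjusted p = 0.00214, edgeR), 1.90 for Rhbg (SE 0.41, adjusted p = 0.00499, edgeR), 1.66 for Rnf43 (SE 0.52, adjusted p = 0.0355, edgeR) and 1.52 for Oat (SE 0.38, adjusted p = 0.0127, edgeR). The values for Axin2 (0.77, SE 0.39), Lgr5 (0.24, SE 0.42) and Znrf3 (0.21, SE 0.41) were not past the threshold. The Oat call was lost without KO chow replicate 1 (1.31, adjusted p = 0.0762, edgeR). The Rnf43 call was lost without any 1 of WT chow replicates 2, 3 and 4, WT CDAHFD replicates 1 and 2, KO chow replicate 1, and KO CDAHFD replicates 1 and 3, with values from 1.22 to 1.71 in those fits and adjusted p from 0.0511 to 0.176 (edgeR). The 8 libraries with a clock score under 0, an alternative chosen after seeing the data, leave 1 KO chow library. The values there were 2.37 for Slc1a2, 3.27 for Tbx3, 2.64 for Glul, 2.26 for Sp5, 1.315 for Rhbg, 1.84 for Rnf43 and 1.25 for Oat. Axin2 was at 0.98, Lgr5 at 0.33 and Znrf3 at 0.14.

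**Figure D3:**
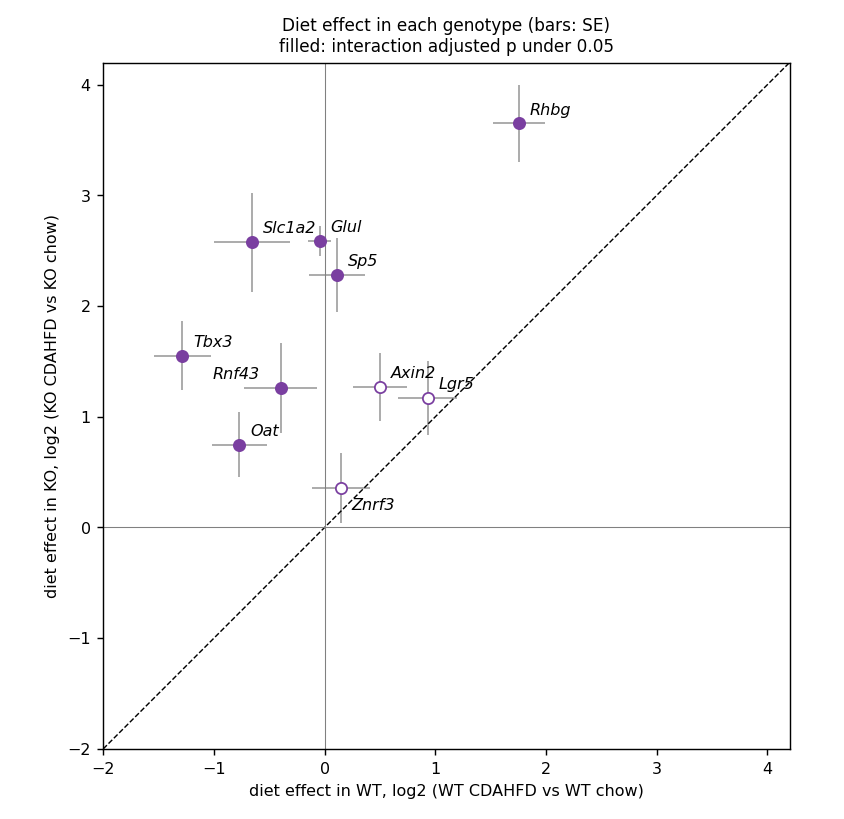
Diet effect of each of the 10 genes in WT mice (horizontal, WT CDAHFD against WT chow) and in KO mice (vertical, KO CDAHFD against KO chow) as log2 fold changes with standard errors as bars. Filled points have an interaction adjusted p under 0.05, and all 10 points lie above the dashed line of equal effects, with Glul at -0.04 in WT and 2.59 in KO mice.

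The genes of the Wnt pathway upstream of these targets were counted by role, from lists written by hand. Of 23 Wnt and R-spondin ligands, 14 had enough counts, of which 3 rose and 0 fell in KO chow. On CDAHFD, 6 rose and 1 fell in WT mice, and 5 rose and 0 fell in KO mice, all against WT chow. Beside these and the following counts stand the shares of all genes called, which were 22% higher and 17% lower in KO chow, 26.1% and 25% in WT CDAHFD, and 26.9% and 25.4% in KO CDAHFD. The 3 of 14 ligands in KO chow are near that share. Rspo3, the R-spondin of the central vein, had 5.28, 7.55, 6.10 and 4.63 CPM in WT chow, 8.01, 10.8 and 8.43 CPM in WT CDAHFD, 9.38 and 9.17 CPM in KO chow, and 9.67, 11.7 and 10.6 CPM in KO CDAHFD. Each library of the other 3 groups was above each WT chow library, and the log2 fold changes were 0.65 in KO chow (SE 0.19, adjusted p = 0.0176, edgeR), 0.62 in WT CDAHFD (SE 0.17, adjusted p = 0.00941, edgeR) and 0.85 in KO CDAHFD (SE 0.17, adjusted p = 0.00113, edgeR). Wnt2 and Wnt9b, Wnt ligands of the liver endothelium, were not called in any of these. Wnt2 was at 3.86 ± 2.08 CPM in WT chow (SD, n = 4) with log2 fold changes of -0.81, -0.24 and -0.47 in KO chow, then WT CDAHFD and KO CDAHFD, and Wnt9b was at 1.19 ± 0.346 CPM (SD, n = 4) with -0.71, -0.38 and 0.51. The KO CDAHFD libraries of Wnt9b spread from 0.775 to 3.28 CPM, with a median of 1.04, below the WT chow mean.

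Among the other ligands, Wnt5a, which signals mainly without beta-catenin, was higher in all 3 groups (1.45, 1.73 and 2.33). Wnt11 was called higher in all 3 groups and Wnt7b in both CDAHFD groups, but the WT chow libraries held 0 to 2 counts of Wnt11 and 0 to 3 of Wnt7b, too few for a fold. Wnt11 had 9 and 10 counts in the KO chow libraries and, on CDAHFD, 7 to 15 in WT mice and 19 to 23 in KO mice. On CDAHFD Wnt7b had 15 to 47 counts in WT mice and 38 to 64 in KO mice. Wnt5b was lower in WT CDAHFD (-0.68). Wnt10a had 0 counts in each WT chow library, 1 to 14 with CDAHFD in WT mice and 10 to 21 in KO mice, which is at least 1.54-fold and 3.43-fold higher against a floor of 3 counts per library. The median fitted log2 fold change of the 14 ligands was 0.582 for KO chow, 0.819 for WT CDAHFD and 0.864 for KO CDAHFD, against -0.0478 to 0.00217 over all genes. With each group mean under the floor of 3 counts per library set to that floor, which touched 5 ligands, the medians were 0.257, 0.637 and 0.423.

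Of 19 receptors and genes of ligand secretion, 17 were tested, of which 2, 4 and 5 were higher and 4, 4 and 4 lower in KO chow, then WT CDAHFD and KO CDAHFD, with medians of -0.24, -0.192 and 0.0764. Lgr4, the R-spondin receptor that hepatocytes express along the whole lobule, had 81.0 to 109 CPM in WT chow, 35.7 to 47.9 in WT CDAHFD, 39.5 and 49.6 in KO chow, and 33.1 to 35.2 in KO CDAHFD. It was lower in all 3 groups, at log2 differences of -1.04 (SE 0.16, adjusted p = 2.27e-04, edgeR), -1.16 (SE 0.14, adjusted p = 1.73e-05, edgeR) and -1.42 (SE 0.14, adjusted p = 3.18e-06, edgeR) in KO chow, then WT CDAHFD and KO CDAHFD. Porcn, which attaches the lipid that Wnt proteins need for secretion, was lower (-1.60, -1.82 and -1.48), while Wls, which carries Wnt proteins to the surface, was higher (1.42, 1.60 and 1.91). Fzd8 was lower in KO chow (-1.15), Fzd3 was higher in KO chow (1.39) and WT CDAHFD (1.64), and Fzd2 was higher in KO CDAHFD (1.98). The WT chow libraries held only 3 to 12 counts of Fzd3 and 3 to 11 of Fzd2, so the folds of these genes rest on few counts.

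Of 16 secreted and membrane inhibitors, 10 were tested, of which 3 were higher in each comparison and 3, 2 and 2 lower in KO chow, then WT CDAHFD and KO CDAHFD, with fitted medians of 0.833, 0.809 and 1.40. With group means under the floor set to it, which touched 6, 5 and 5 of them, the medians were 0.526, 0.415 and 0.931. Frzb (3.35, 3.72 and 3.81) and Sfrp4, secreted proteins that bind Wnt ligands, were higher. Sfrp4 had 0 or 1 counts in each WT chow library, too few for a fold, and 5 to 24 in the other libraries. Wif1, which also binds Wnt ligands, was lower in all 3, at -2.19 with CDAHFD in WT mice and -2.20 in KO mice. It had 15 to 43 counts in WT chow and 1 in each KO chow library, too few for a fold. Dkk4 had 8 to 17 counts in WT chow, 0 to 2 in WT CDAHFD, where it was lower, and 0 in each KO library, which is at least 6.01-fold lower in KO chow and 6.20-fold lower in KO CDAHFD against a floor of 3 counts per library.

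All 17 genes of beta-catenin transduction were tested, of which 2, 4 and 3 were higher and 3, 2 and 3 lower, with medians of -0.0134, 0.0113 and 0.00392. Ctnnb1, which encodes beta-catenin, had 233 to 251 CPM in WT chow, 272 to 295 in WT CDAHFD, 256 and 269 in KO chow, and 235 to 278 in KO CDAHFD. Its log2 fold changes were small, at 0.11, 0.23 (adjusted p = 0.0496, edgeR) and 0.10, and the change in WT CDAHFD was the only one called. Tcf7l2, the main TCF factor of hepatocytes, was lower in WT CDAHFD (-0.62, SE 0.13, adjusted p = 0.00126, edgeR) and KO CDAHFD (-0.34, SE 0.12, adjusted p = 0.0347, edgeR), and at -0.24 in KO chow (adjusted p = 0.192, edgeR). Tcf7 (1.06, 1.10 and 1.26) and Pygo1 (1.07, 1.74 and 2.47) were higher, and Dvl1 was lower (-0.54, -0.35 and -0.42). Bcl9l was lower in KO chow (-0.82) and Gsk3a in KO CDAHFD (-0.37).

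Of 7 other Wnt targets, 6 were tested, of which 4, 5 and 5 were higher and 1, 1 and 0 lower, with medians of 1.51, 1.90 and 2.14. Ccnd1 (3.85, 3.23 and 3.46) and Myc (3.76, 3.83 and 3.19), which promote cell division, were higher in all 3 groups. Notum, an enzyme that inactivates Wnt proteins, had 24.6 to 34.7 CPM in WT chow, 17.6 to 24.5 in WT CDAHFD, 14.2 and 18.8 in KO chow, and 26.5 to 28.02 in KO CDAHFD. Like Tbx3, it was lower in KO chow (-0.89, SE 0.18, adjusted p = 0.00164, edgeR) and WT CDAHFD (-0.59, SE 0.15, adjusted p = 0.00586, edgeR) and was not called in KO CDAHFD (-0.16, SE 0.15, adjusted p = 0.384, edgeR). Nkd1, a feedback inhibitor of Dishevelled, had 6.44 to 9.04 CPM in WT chow, 10.2 to 11.4 in WT CDAHFD, 7.03 and 7.64 in KO chow, and 11.6 to 17.98 in KO CDAHFD. It was higher on CDAHFD in WT (0.45, SE 0.17, adjusted p = 0.0364, edgeR) and KO mice (0.90, SE 0.16, adjusted p = 5.63e-04, edgeR), both against WT chow.

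**Figure D4:**
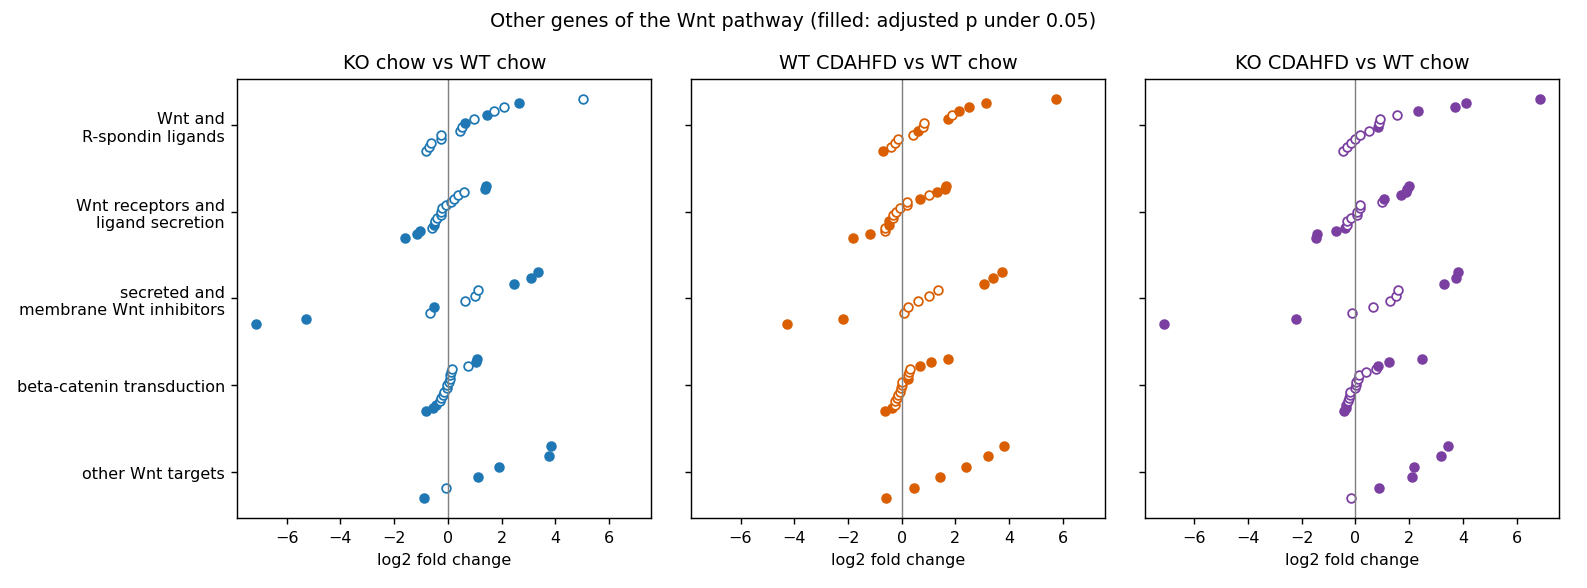
Log2 fold change against WT chow (horizontal axis) of each tested gene in 5 lists of the Wnt pathway, 1 panel per comparison, with filled points at an adjusted p under 0.05. The points spread to both sides of 0 in most lists, and the points beyond 5 or -5 are Wnt10a, Dkk4 and Wif1. The positions of these and of Wnt7b, Wnt11 and Sfrp4 depend on groups with few or no counts.

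The 10 genes were set beside other genes of the same zone and of the periportal zone. All 11 other pericentral hepatocyte genes were tested, of which 1, 3 and 3 were higher and 7, 4 and 2 lower in KO chow, then WT CDAHFD and KO CDAHFD, with medians of -0.596, -0.15 and -0.0274. Cyp2e1, a cytochrome P450 of ethanol and drug metabolism, had 4534, 6311, 8523 and 8708 CPM in WT chow, 4145, 3137 and 3509.9 CPM in WT CDAHFD, 969 and 1497 CPM in KO chow, and 3941, 4571 and 4614 CPM in KO CDAHFD. Its KO chow libraries were below all others, and the log2 fold changes were -2.51 in KO chow (SE 0.29, adjusted p = 2.39e-05, edgeR), -0.96 in WT CDAHFD (SE 0.23, adjusted p = 0.00343, edgeR) and -0.68 in KO CDAHFD (SE 0.23, adjusted p = 0.0223, edgeR). Cyp1a2, a cytochrome P450 of caffeine metabolism, fell by -2.39 in KO chow (SE 0.18, adjusted p = 1.14e-06, edgeR) and -0.42 in WT CDAHFD (SE 0.14, adjusted p = 0.0292, edgeR), and was at -0.28 in KO CDAHFD (SE 0.14, adjusted p = 0.126, edgeR). Slc13a3, a carrier of dicarboxylates, was higher in WT CDAHFD (2.19) and KO CDAHFD (2.14). Ahr, the aryl hydrocarbon receptor, was higher in KO chow (0.53) and WT CDAHFD (0.75), and Lect2 was higher in KO CDAHFD (0.89). Rgn was lower in WT CDAHFD (-1.18) and KO CDAHFD (-0.92). In KO CDAHFD against KO chow, 8 of the 11 were higher and 0 lower, beside a background of 3.76% higher, with Cyp1a2 at 2.11 and Cyp2e1 at 1.83.

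All 12 periportal genes were tested, of which 2, 1 and 1 were higher and 6, 10 and 10 lower, with medians of -0.791, -1.71 and -1.60. Cyp2f2, a periportal cytochrome P450, was lower in all 3 groups (-1.59, -2.31 and -2.44), as was Hal, which degrades histidine (-0.93, -2.61 and -2.24). Pck1, an enzyme of glucose synthesis, was lower in KO CDAHFD (-2.29). Aldh1b1 was higher (2.44, 1.22 and 1.68), and Hsd17b13 was higher in KO chow (0.73). In KO CDAHFD against KO chow, 0 periportal genes were higher and 6 were lower, where 3.76% and 2.44% of all genes were called. Summed over each list, the 12 periportal genes were at 17649 to 23856 CPM in WT chow, 6744 to 7542 in WT CDAHFD, 11429 and 14833 in KO chow, and 6751 to 7202 in KO CDAHFD. The sum of the 10 pericentral and Wnt target genes, most of it Glul and Oat, was 1908 to 2751 CPM, 1697 to 1961, 662 and 869.8, and 1896 to 2579 in the same order. The sum of the 11 other pericentral genes, a large part of it Cyp2e1, was 7445 to 12040 CPM in WT chow and 5480.5 to 6689.5 in WT CDAHFD. It was 2639 and 3196 CPM in KO chow and 6703 to 7584 in KO CDAHFD. KO chow was thus lowest for both pericentral sums and the CDAHFD groups were lowest for the periportal sum.

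**Figure D5:**
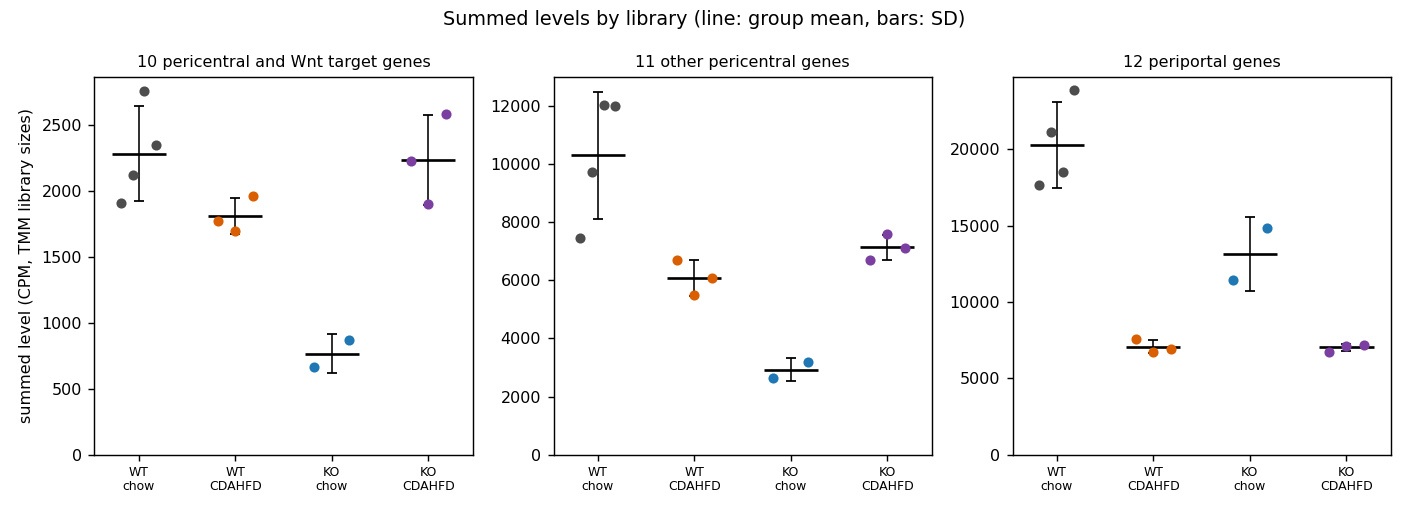
Summed CPM with TMM library sizes (vertical axes start at 0) of the 10 pericentral and Wnt target genes, 11 other pericentral genes and 12 periportal genes, a point per library with the group mean as a line and the SD as bars. The KO chow points are the lowest in the first panel (662 and 869.8 CPM) and the second, and the CDAHFD points are the lowest in the third.

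Over the 12 libraries, the genes whose log2 CPM was most like that of Glul among 17357 genes were Cyp1a2 (Pearson r = 0.959), Gulo (0.958) and Daglb (0.937). For Lgr5 they were Ap5b1 (0.936), Inf2 (0.935) and Slc45a4 (0.934), and for Axin2 they were Gm21860 (0.843), Bcl9 (0.839) and Ccr10 (0.834). These r describe libraries that share groups and are not tests. Of the 45 pairs among the 10 genes, 44 had a positive r over the 12 libraries, with a median of 0.555. After removal of the group means, 33 were positive and the median was 0.29. The share of positive r among pairs of all genes was not determined. These counts are therefore not read as a result about the 10 genes.

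Markers of other liver cells moved with the groups. The 8 macrophage markers summed to 231 to 428 CPM in WT chow, 1777 to 2497 in WT CDAHFD, 856 and 951 in KO chow, and 1876 to 1955 in KO CDAHFD, with 6 of 8 higher in each group against WT chow and 1, Timd4, lower in both CDAHFD groups. The 8 stellate cell markers summed to 219 to 298 CPM, 1072 to 1134, 887 and 973, and 1137 to 1448 in the same order of groups, with 5, 5 and 6 of 8 higher in WT CDAHFD, KO chow and KO CDAHFD. The 5 cholangiocyte markers summed to 46.1 to 79.4 CPM, 358 to 578, 165 and 288, and 568 to 883, with 5, 4 and 5 of 5 higher. The 5 markers of cycling cells summed to 5.46 to 7.60 CPM, 104 to 117, 105 and 209.6, and 63.2 to 119.8, with 5 of 5 higher in each group. The 8 endothelial markers summed to 183 to 280.4 CPM, 129.99 to 187, 179 and 262, and 129 to 232, with 1 of 8 higher in each and 3, 0 and 3 lower. The 5 hepatocyte markers summed to 88796 to 102660 CPM, 45923 to 55600, 72791 and 83048, and 42939 to 57361, with 5, 4 and 5 of 5 lower. The 5 lymphocyte markers summed to 2.61 to 4.03 CPM, 3.85 to 4.98, 5.74 and 6.26, and 4.38 to 5.40, with 1, 2 and 2 of 5 higher. Of 12 clock genes, 0 were higher and 1 was lower in each group. No marker of these lists was at 0 over a whole group. The part of cell makeup in the levels of the 10 genes was not tested.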

How the data were processed

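Poly-A RNA of 12 mouse livers was sequenced on an Illumina NovaSeq in non-directional libraries. The authors checked reads with FastQC 0.11.5, aligned them to GRCm38 with STAR 2.7.3a and deposited raw counts per Ensembl gene, without normalization; the counting program and annotation release are not given in the sources used here. GENCODE M21 matched 52081 of 55357 identifiers (94.08%) and 99.691% of the counts. Groups and replicate numbers were taken from the labels, each library was taken as 1 mouse, and nothing in the labels separates biological from technical spread.

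Genes were filtered with filterByExpr and scaled by TMM, with factors of 0.729 to 0.827 in WT chow and 1.03 to 1.26 elsewhere. Means of the 4 groups were fitted over 12 libraries with edgeR 4.0.16 (quasi-likelihood test, R 4.3.3), with Benjamini-Hochberg adjustment over 17358 genes, and a gene with an adjusted p under 0.05 was called. The SE was the absolute log2 fold change divided by the square root of F. The floor of a gene at 0 was taken as 3 counts per library and covers counting error only. DESeq2 1.42.0, other scalings and filters, a replicate block, a clock covariate and the removal of single libraries were tried as alternatives. Same-numbered libraries did not deviate together, so the block stayed an alternative.

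Named were the 10 genes, Ppara, 10 further genes of Wnt signalling and zonation, per list and comparison with WT chow up to 2 called genes in each direction with the largest change (marker and clock lists are given as sums and counts), and the 3 genes most like Glul, Lgr5 and Axin2. The genes, lists and tests were chosen with earlier results of these data known. The hepatocyte list had 6 symbols, of which 5 matched. Promoters came from RefSeq (GRCm38.p6). Figures were drawn in Python 3.11.15 with matplotlib 3.10.9.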

Additional observations from a re-analysis of the deposited data

Results flagged for a closer look

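The diet effect differed between KO and WT mice, by the interaction term of the edgeR fit at an adjusted p under 0.05, for 7 of the 10 genes. The log2 differences, KO minus WT, were 3.23 for Slc1a2, 2.84 for Tbx3, 2.63 for Glul, 2.17 for Sp5, 1.90 for Rhbg, 1.66 for Rnf43 and 1.52 for Oat. Among the other genes named in the text it also differed for Cyp2e1 by 2.79, Cyp1a2 by 2.53, Notum by 1.31 and Lgr4 by 0.79. For Lgr4 the KO chow, WT CDAHFD and KO CDAHFD values were all lower than WT chow, so the difference is one of size. All of these rest on 2 KO chow libraries.

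In WT chow, the only group of 4 libraries, no library stood apart from the other 3 by Dixon's test for any of 21 genes examined.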

How the results depend on the processing

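The number of the 10 genes called kept within 1.5 times of its main value under every other setting that kept all libraries, with these exceptions, whose cause was not tested. With library size as the only scaling it was 7 in WT CDAHFD against WT chow and 8 in KO CDAHFD against WT chow. With a replicate block it was 2 in KO CDAHFD against WT chow, where Lgr5 and Sp5 were lost. With DESeq2, and without a filter on low counts, it was 1 in KO CDAHFD against WT CDAHFD. Leaving out 1 library at a time gave 5 to 7 genes in KO chow against WT chow, 3 to 5 in WT CDAHFD against WT chow and 2 to 4 in KO CDAHFD against WT chow. It gave 0 in each fit of KO CDAHFD against WT CDAHFD, 3 to 8 in KO CDAHFD against KO chow, 2 to 5 in KO chow against WT CDAHFD and 5 to 7 for the interaction, and where 1 KO chow library was left it was assumed to vary like the other groups.

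The replicate numbers did not pair the libraries: over 15 pairs with the same number the correlation of deviations ran from -0.242 to 0.266, and 3 were over 0.1. The block gave 6, 4, 2, 0, 6, 5 and 7 genes for KO chow, WT CDAHFD and KO CDAHFD against WT chow, KO CDAHFD against WT CDAHFD, KO CDAHFD against KO chow, KO chow against WT CDAHFD and the interaction. It lost Oat in KO chow against WT chow (-0.55, adjusted p = 0.12, edgeR), and in KO CDAHFD against KO chow it lost Axin2 (1.26, adjusted p = 0.0692, edgeR) and gained Rnf43 (1.14, adjusted p = 0.0431, edgeR).

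Signs changed only for values that were not called in the main fit. With library size only, they became 0.16 for Axin2 and 0.12 for Znrf3 in KO chow, 0.51 for Glul and 0.17 for Rnf43 in WT CDAHFD, and 0.60 for Glul, 0.59 for Oat, 0.42 for Slc1a2 and 0.30 for Tbx3 in KO CDAHFD, all against WT chow, 0.013 for Rhbg in KO CDAHFD against WT CDAHFD, and -0.096 for Lgr5 and -0.14 for Znrf3 in the interaction. Of these, Glul in WT CDAHFD was called under that scaling (adjusted p = 0.00132, edgeR). Glul and Oat in KO CDAHFD were called under it too (adjusted p = 4.04e-04 and 0.0456, edgeR). Against WT chow, Glul in WT CDAHFD became 0.010 without a filter and 0.0061 with only the groups compared. Glul in KO CDAHFD became 0.026 with RLE size factors, 0.028 with DESeq2, 0.042 without a filter, 0.034 with a mean count of at least 50 and 0.038 with only the groups compared. Oat in KO CDAHFD became 0.0016 with DESeq2, 0.017 without a filter, 0.0081 with a mean count of at least 50, 0.013 with only the groups compared, 0.027 with the replicate block and 0.17 in the 8 libraries with a clock score under 0. The block also gave 0.15 for Oat in KO chow against WT CDAHFD and -0.024 for Znrf3 in the interaction. In KO CDAHFD against WT CDAHFD, the clock covariate gave -0.018 for Glul and -0.066 for Slc1a2, and the 8 libraries gave -0.030 and -0.24. The clock covariate gave -0.14 for Znrf3 in the interaction.

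Leaving out 1 library moved Glul from -0.072 to 0.0047 in WT CDAHFD and from -0.070 to 0.045 in KO CDAHFD, Sp5 from -0.049 to 0.33 in WT CDAHFD, Oat from -0.19 to 0.19, Slc1a2 from -0.89 to 0.066, Rnf43 from -0.018 to 0.42 and Znrf3 from -0.16 to 0.28 in KO CDAHFD, and Znrf3 from -0.82 to 0.12 in KO chow, all against WT chow. In KO CDAHFD against WT CDAHFD it moved Glul from -0.029 to 0.083, Slc1a2 from -0.24 to 0.72, Rhbg from -0.14 to 0.058 and Znrf3 from -0.31 to 0.045. Znrf3 ran from -0.012 to 0.89 in KO CDAHFD against KO chow and from -0.18 to 0.74 in the interaction, and Oat from -0.26 to 0.17 in KO chow against WT CDAHFD. Of all genes, the 62 called in KO CDAHFD against WT CDAHFD became 244 with DESeq2, 215 without a filter, 166 with the clock covariate, 154 with only the groups compared and 113 in the 8 libraries, and at least 26 without 1 library. The 1075 called in KO CDAHFD against KO chow became 1886 with DESeq2, 1669 with the clock covariate, 640 with the block, 581 with only the groups compared, 600 in the 8 libraries and 233 without KO chow replicate 1. The 1063 called in KO chow against WT CDAHFD became 2061, 2576, 1985 and 2680 with DESeq2, the clock covariate, only the groups compared and the 8 libraries, and 260 without KO chow replicate 1. The 6763 called in KO chow against WT chow became 4320 without that library.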
